A study of Mus musculus with 9 samples.

Results

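The stress keratins are the 4 keratin genes Krt6a, Krt6b, Krt16 and Krt17, which squamous epithelium switches on at the edge of a wound. They were followed in healthy mouse stomach across the corpus, the squamocolumnar junction and the forestomach. Members were the probe sets whose only gene symbol is 1 of these 4, and 7 of the 45101 probe sets on the array met that rule. Krt6a had 3 of them, Krt17 had 2, and Krt6b and Krt16 had 1 each. After a filter on dim probe sets 13637 genes were tested, all 4 stress keratins among them. The members were selected on their signals in these same arrays, so their levels and differences are given with their spread as a description, without a p-value.

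Every array held RNA of normal, untreated female C57Bl/6 mice aged 3 months and kept free of specified pathogens, and the labels name no genetic change. The corpus is the acid-secreting glandular stomach, the forestomach is its non-glandular part under a stratified squamous lining, and the junction is the line at the limiting ridge where both linings meet. Side-by-side stripes of 600 to 800 µm were cut from 9 mice, and each array carried the pooled tissue of 3 mice, 3 arrays per zone. The 3 arrays of a series came from the same mice, and the series were separate pools, so differences between mice as well as the handling of samples enter the spread within a zone. A stripe holds the whole mix of cells across its width. A higher signal from more cells of a type and from more RNA per cell cannot be told apart.

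Keratins build the intermediate filaments of epithelial cells, and each filament needs a type I and a type II partner. Krt6a and Krt6b are type II keratins, and Krt16 and Krt17 are type I keratins that partner with them. In skin between the hairs they are scarce at rest and are induced in keratinocytes after wounding, in psoriasis and under other stress. Parts of the hair follicle, the nail and the oral lining make them without injury. Resting squamous epithelium is built instead on Krt5 and Krt14 in its basal layer and, depending on the site, on Krt1 with Krt10 or Krt4 with Krt13 above it. Gland cells use Krt8, Krt18 and Krt19.

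The stress keratins had their highest signal at the junction in each of the 3 series. Of the 4 genes, 4 had all 3 junction arrays above the other 6 arrays, an order found in 2.85% of all genes tested. Junction means were 15.8 to 130 times those of the corpus and 6.59 to 14.7 times those of the forestomach, both on the scale of log2(signal + 9.8) used for all folds here. That added constant damps noise in dim probe sets and makes the fold of a gene that is dim in 1 zone smaller than the ratio of its signals.

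**Figure D1:**
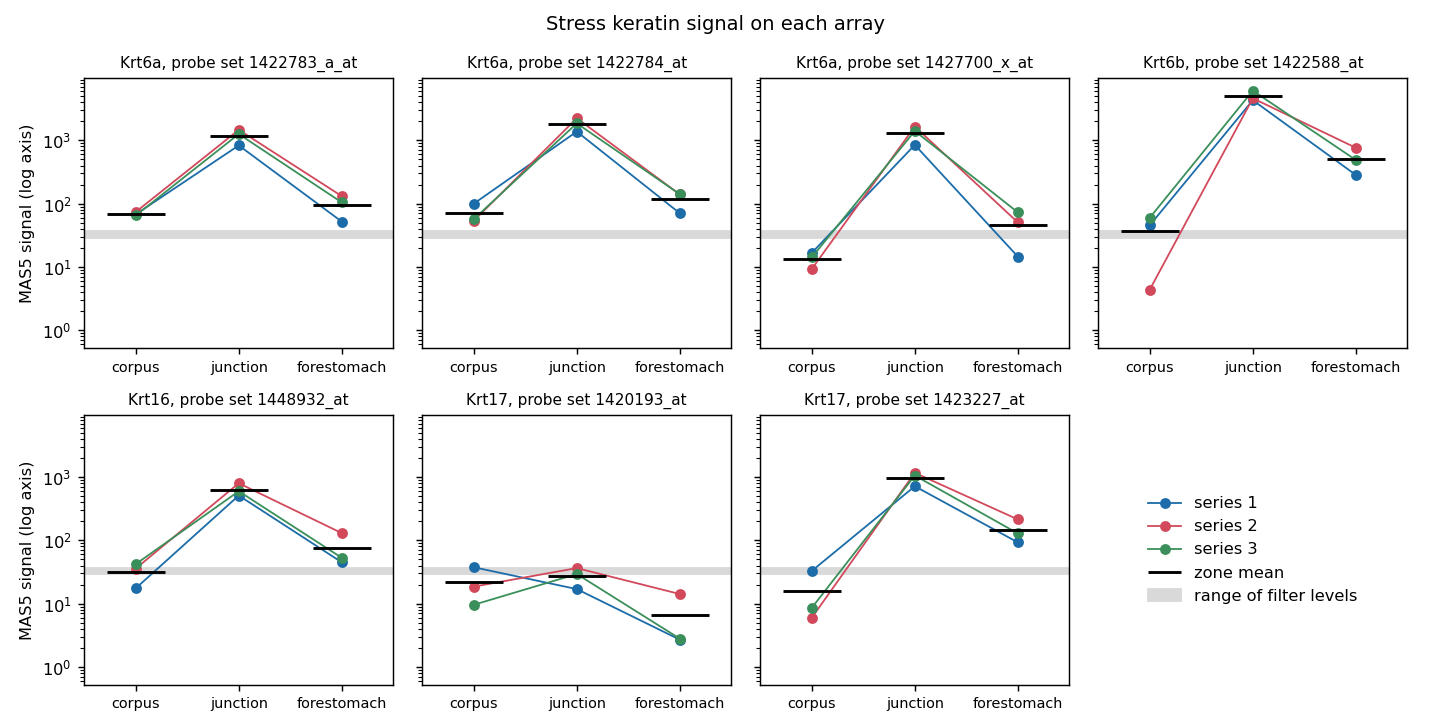
Signal of each of the 7 probe sets (log axis) on the arrays of corpus, junction and forestomach, with 1 coloured line per series of pooled mice, the zone mean as a black bar and the range of the filter levels (29.0 to 36.5) as a grey band. In 6 of the 7 panels the 3 junction arrays lie above the other 6, and only the dim second Krt17 probe set lacks that peak.

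Krt6a, the type II keratin for which the array had 3 probe sets, was read from the brightest, 1422784_at. Its signal was 100, 53.6 and 56.9 on corpus arrays 1, 2 and 3, then 1375.5, 2236.8 and 1854.8 at the junction, and 70.5, 139.6 and 141.1 in the forestomach. The junction arrays stood far above both other zones, whereas corpus and forestomach arrays overlapped. The junction exceeded the corpus by 4.54 ± 0.31 (log2 difference ± SE, n = 3 arrays per zone, 23.2-fold). Over the forestomach it was higher by 3.88 ± 0.31 (14.7-fold), the smallest gap between the 2 junction differences among the members. The forestomach lay 0.65 ± 0.31 above the corpus, with a sign that changed between series: -0.45 in series 1, 1.24 in series 2 and 1.18 in series 3.

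The other Krt6a probe sets ran the same course. Probe set 1422783_a_at gave 67.8, 74.0 and 65.1 in the corpus, 831.4, 1465.1 and 1258.1 at the junction, and 52.0, 131.4 and 104.6 in the forestomach. Probe set 1427700_x_at gave 16.7, 9.3 and 14.2, then 846.6, 1651.7 and 1405.8, then 14.6, 50.6 and 72.9. The junction was 3.89 and 5.78 above the corpus by these probe sets and 3.54 and 4.67 above the forestomach (log2 differences). Krt6a and Krt6b are near-identical neighbouring genes, and the _x_ in a probe set's name marks probes that can bind related transcripts. The share of each gene in these 2 signals is uncertain.

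Krt6b, its close paralog, showed the widest gap between junction and corpus. It was dim in the corpus, at 45.7, 4.4 and 60, and reached 4302.2, 4613.8 and 6081.4 at the junction. The forestomach arrays read 283.6, 762.5 and 489.7, above every corpus array and below every junction array. Of all 13637 genes, Krt6b ranked 1 by the difference between junction and corpus, 7.02 ± 0.58 (130-fold), a place it held under 18 of 23 other settings. Corpus array 2 weighs on that size, and without it the fold was 79.6 and the place 5. An added constant of 1 gave 199-fold and place 2, and one of 30.9 gave 79.4-fold. The series held their direction with 6.28, 8.35 and 6.45 in series 1, 2 and 3, and leaving out series 2 gave 82.3-fold and place 5, while leaving out corpus array 1 or series 1 gave place 2. The junction was 3.36 ± 0.58 above the forestomach (10.2-fold), and the forestomach 3.67 ± 0.58 above the corpus (12.7-fold, or 7.77-fold without corpus array 2, 19.7-fold without series 1 and 6.15-fold without series 2).

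Krt16, a type I partner of Krt6, read 17.5, 35.9 and 42.2 in the corpus, 510.7, 798.0 and 596.9 at the junction and 45.0, 130.1 and 53.0 in the forestomach. It stood above both neighbours at the junction in every series, by 3.98 ± 0.38 over the corpus (15.8-fold) and by 3.02 ± 0.38 over the forestomach (8.09-fold). Only 1 of the 3 corpus arrays was above the filter level. Under the 23 other settings the fold over the corpus ran from 10.6 to 20.2. Corpus and forestomach did not overlap, but the lowest forestomach array was just above the highest corpus array. Their difference was 0.96 ± 0.38, with an SD of 0.67 between series. Without forestomach array 2, the brightest of its zone for this gene, both other forestomach arrays sat at 53.0 or below.

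Krt17, the other type I stress keratin, was below the filter level on all 3 corpus arrays, at 32.9, 6.0 and 8.6. The junction arrays read 715.6, 1167.5 and 1056.3 and the forestomach arrays 92.9, 214.0 and 128.7, so the 3 zones did not overlap. The junction was 5.39 ± 0.41 above the corpus (41.9-fold) and 2.72 ± 0.41 above the forestomach (6.59-fold), and the forestomach 2.67 ± 0.41 above the corpus (6.35-fold). With signals this low in the corpus, the size against it rests on the added constant, with 73.0-fold at a constant of 1 and 21.9-fold at 30.9. Leaving out series 1, where the corpus read 32.9, gave 65.7-fold over the corpus for the junction and 10.3-fold for the forestomach. The second Krt17 probe set, 1420193_at, failed the filter, with 37.6, 18.6 and 9.6 in the corpus, 17, 36.5 and 29.4 at the junction and 2.7, 14.2 and 2.8 in the forestomach. It shows no peak at the junction, and its corpus and junction arrays overlap. A further probe set shared between Krt17 and Krt14 was no member by the rule. It read 3.8, 4.6 and 2.8 in the corpus, 21.5, 14.2 and 37.1 at the junction and 31.5, 32.5 and 28.2 in the forestomach.

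The members differed most among themselves outside the junction. The forestomach exceeded the corpus 12.7-fold for Krt6b and 6.35-fold for Krt17, beside 1.95-fold for Krt16 and 1.57-fold for Krt6a, and no test compared these values between genes. The order does not follow the keratin types, and the forestomach arrays of Krt16, like those of Krt6b and Krt17, all lay between its corpus and junction arrays. Over the 9 arrays the profiles of Krt6b and Krt17 correlated at Pearson r = 0.981 and those of Krt6a and Krt16 at r = 0.956, and the other 4 pairs lay between 0.898 and 0.925. These coefficients describe arrays that share 3 zones, which sets most of their height. In the genome the type II pair sits side by side next to Krt5, in the order Krt6b, Krt6a, Krt5, and the type I pair lies between Krt14 and Krt42, in the order Krt14, Krt16, Krt17, Krt42.

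The 3 comparisons share arrays, each zone serving in 2 of them, so their values are set side by side. The median difference of the 4 members was 4.96 for junction over corpus, 3.19 for junction over forestomach and 1.82 for forestomach over corpus, against -0.05, -0.04 and -0.01 for all genes tested. At the limma threshold applied to all genes (adjusted p of 0.05), 4 of the 4 lay above it for junction over corpus, where 13.2% of all genes were called higher. For junction over forestomach it was again 4 of 4, where 21.5% were called higher. For forestomach over corpus 2 of 4, Krt6b and Krt17, lay above it and 0 below, where 30% of all genes were called higher and 29.9% lower. All arrays of the first zone were above all of the second for 4, 4 and 3 of the 4 genes in these comparisons, against 20%, 26.0% and 33.2% of all genes. Above both neighbours at the threshold were 4 of 4, against 1.33% of all genes (182 genes). All of these counts follow from how the members were chosen.

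Ranked by the smaller of its 2 junction differences, Krt6a stood at place 2 of 13637 genes, Krt6b at 4, Krt16 at 5 and Krt17 at 8. Under the 23 other settings these places ran from 1 to 3, 3 to 5, 4 to 7 and 6 to 11. The places between went to lactoferrin (Ltf, 1), an iron-binding protein of neutrophils and of mucosal secretions, the claudin Cldn2 (3), a pore-forming tight junction protein, the chitinase-like gene Chil3 (6) and Wfdc18 (7).

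**Figure D2:**
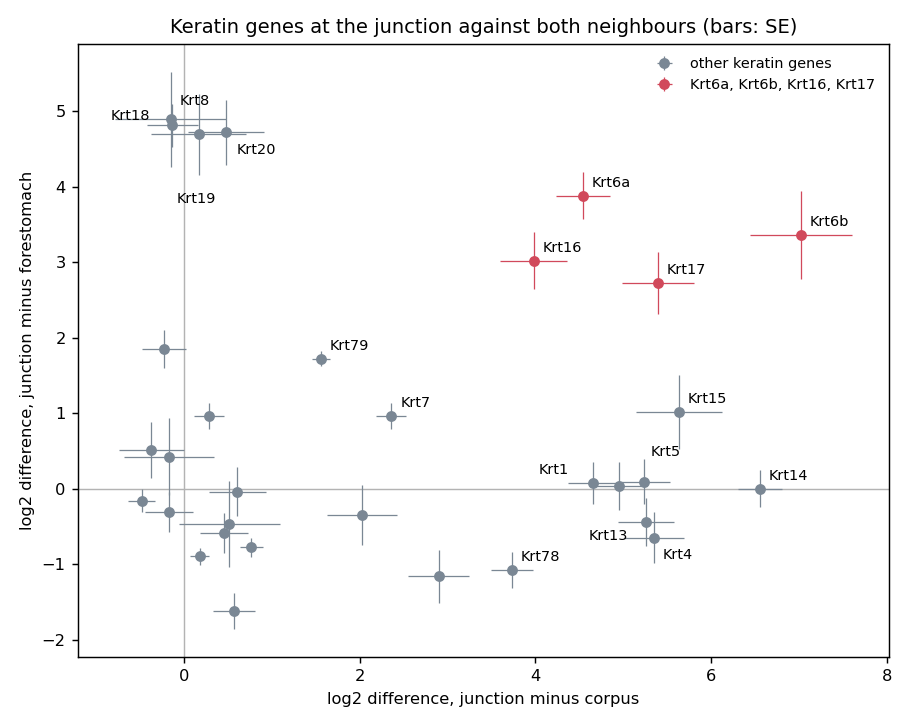
Each point is 1 of 32 keratin genes, with its log2 difference between junction and corpus on the horizontal axis, between junction and forestomach on the vertical axis, and bars of 1 SE (n = 3 arrays per zone). The 4 stress keratins (red) are far to the right and high up, the squamous keratins such as Krt5 and Krt14 are right at a height near 0, the gland keratins Krt8, Krt18, Krt19 and Krt20 are high at a position near 0, and Krt7 and Krt79 are the others called above both neighbours.

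Set against the rest of their family, the stress keratins took places 1 to 4 of the 32 keratin genes measured, by the smaller junction difference. Krt79, a keratin of the skin's hair canal and sebaceous duct, came next with 1.56, followed by Krt15 with 1.01 and Krt7 with 0.96. Of the 28 other keratins, 13 were called higher and 1 lower at the junction than in the corpus, where 13.2% of all genes were called higher and 11.8% lower. Against the forestomach 8 were higher and 5 lower, where 21.5% of all genes were called higher and 23.1% lower. Krt79 and Krt7 were called above both, 7.14% of the 28 beside 1.33% of all genes.

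The basal keratins Krt5 and Krt14, whose genes lie next to those of the stress keratins, were high in both zones that carry a squamous lining. Krt14 went from a mean signal of 57.2 in the corpus to 6049 at the junction (log2 difference 6.55 ± 0.25, limma adjusted p = 9.52e-07, or 5.21 with the mean of its probe sets). Its forestomach mean was 6020, and the junction differed from the forestomach by 0.00 ± 0.25 (adjusted p = 0.997). Krt5 was likewise 5.23 ± 0.30 above the corpus (adjusted p = 5.62e-06) and 0.09 ± 0.30 apart from the forestomach (adjusted p = 0.825). A p-value of that size does not show that 2 zones are equal. The smallest stress keratin difference to the forestomach was 2.72 ± 0.41, for Krt17, and no test compared it with those of Krt5 and Krt14. The suprabasal keratins Krt4 and Krt13 were 5.35 and 5.26 above the corpus at the junction (adjusted p = 1.04e-05 and 8.08e-06) and 0.65 and 0.44 below the forestomach, differences that did not pass. With the mean of its probe sets, Krt13 was at -0.75 against the forestomach and passed (limma adjusted p = 0.00929). Krt4 passed in the fit to the 6 arrays of that comparison (adjusted p = 0.0111) and without corpus array 3 (adjusted p = 0.0182).

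The gland keratins ran the other way. Krt8, Krt18, Krt19 and Krt20 were 4.89, 4.81, 4.69 and 4.72 above the forestomach at the junction (limma adjusted p = 3.71e-04, 5.09e-06, 1.98e-04 and 5.20e-05). Against the corpus their differences of -0.15, -0.13, 0.17 and 0.48 did not pass. The difference of Krt20 to the corpus passed in the fit to the 6 arrays of that comparison (limma adjusted p = 0.0263) and without forestomach array 1 (0.0303). Forestomach array 1 weighs on these sizes: Krt8, Krt19 and Krt20 were 29.6-, 25.8- and 26.3-fold above the forestomach with all arrays, 15.7-, 15.0- and 17.3-fold without that array, and 15.4-, 14.8- and 17.4-fold without series 1. With array 1 as the only forestomach array Krt8, Krt18, Krt19 and Krt20 were 105-, 49.0-, 76.3- and 60.8-fold above it. Krt79 rose at the junction over the corpus by 1.56 ± 0.10 (adjusted p = 1.12e-05) and over the forestomach by 1.72 ± 0.10 (adjusted p = 4.46e-06). Krt7, a keratin of simple and ductal epithelia, rose by 2.36 ± 0.17 (adjusted p = 2.36e-05) and 0.96 ± 0.17 (adjusted p = 0.00208, or 0.0502 with forestomach array 1 as the only forestomach array).

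Forestomach levels were also set beside those of squamous markers, as percentages of the junction mean. In the forestomach the 15 measured squamous markers, from the basal layer to the cornified layer, had a median of 129%, 143% and 135% of their junction mean on arrays 1, 2 and 3. Krt14 stood at 99.5% and Krt5 at 93.4%. The late differentiation genes went further, with 255% for filaggrin (Flg), 368% for involucrin (Ivl) and 401% for the transglutaminase Tgm3. The lowest was Krt15, at 51.0%, and its junction difference of 1.01 ± 0.49 did not pass (adjusted p = 0.130). All 4 stress keratins were below that: Krt6a stood at 3.87%, 7.66% and 7.74% of its junction mean on the 3 forestomach arrays, Krt6b at 5.67%, 15.3% and 9.80%, Krt16 at 7.08%, 20.5% and 8.34%, and Krt17 at 9.48%, 21.8% and 13.1%.

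**Figure D3:**
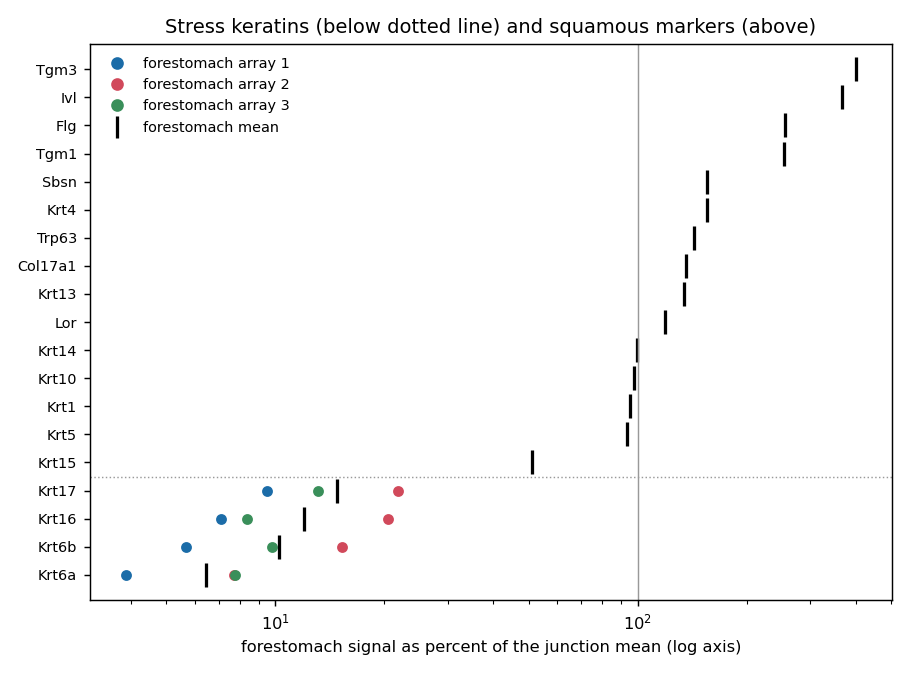
Forestomach signal as a percentage of the junction mean (log axis) for the 4 stress keratins, with 1 coloured point per forestomach array and a black bar for the mean, and for 15 squamous markers, with the mean only. The stress keratin points lie between 3.87% and 21.8%, whereas the marker means run from 51.0% for Krt15 to 401% for Tgm3.

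The 3 forestomach arrays were not alike in this. Array 1 was the lowest of its zone for each of the 4 genes. The 15 gastric gland markers had a median of 0.299% of their corpus mean on forestomach array 1, 3.15% on array 2 and 5.04% on array 3. Arrays 2 and 3 were thus higher than array 1 in gland transcripts as well as in stress keratins. Gland transcripts were higher on array 3 than on array 2. Krt6b, Krt16 and Krt17 were lower there (489.7, 53.0 and 128.7 beside 762.5, 130.1 and 214.0), and Krt6a was at 141.1 beside 139.6. The part of gland transcripts in the stress keratin signals was not tested. With array 1 as the only forestomach array, which assumes that it varies like the arrays of the other zones, the junction was 22.4-fold above the forestomach for Krt6a, 16.9-fold for Krt6b, 11.6-fold for Krt16 and 9.44-fold for Krt17. Forestomach over corpus was then 1.04-fold for Krt6a and 7.71-fold for Krt6b.

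Other epithelia and cells that make stress keratins or come with a wound were read through their markers. Of 24 hair follicle and hair shaft genes with a probe set, 6 or 7 were above the filter level on a junction array, 3 to 5 on a corpus array and 5 to 7 on a forestomach array. Their summed signal was 550.8 to 730.9 at the junction, 479.4 to 569.9 in the corpus and 776.8 to 872.3 in the forestomach. At the junction 16 of the 24 were above the filter level on 0 arrays, 2 (Krt31 and Krt72) on 1, and 6 (Krt32, Krt75, Krt81, Foxn1, Msx2 and Dlx3) on 3. Of the 8 that passed the filter, 3 (Krt75, Foxn1 and Dlx3) were called higher than in the corpus and 1 (Krt81) lower. Against the forestomach 1 (Msx2) was called higher and 2 (Foxn1 and Dlx3) lower. Shares over all genes were 13.2% and 11.8%, then 21.5% and 23.1%. Krt75, a keratin of the follicle's companion layer, rose 4.08-fold over the corpus (limma adjusted p = 0.00694). Its highest mean, 129.4, was in the forestomach, beside 101.0 at the junction. Msx2 means were 26.33, 41.73 and 13.3 in corpus, junction and forestomach (limma adjusted p = 0.0185 over the forestomach, kept under 16 of 22 other settings). Of 12 neutrophil genes with a probe set, 2 to 6 were above the filter level on a junction array, and the summed signal was 1381 to 1904 there against 325.9 to 423.9 in the corpus and 216.0 to 369.8 in the forestomach. Lactoferrin made that difference: the other 11 genes summed to 182.7 to 287.4 at the junction, 217.5 to 345.3 in the corpus and 187.6 to 288.8 in the forestomach. At the junction Ltf and Itgam were above the filter level on 3 arrays, Elane, Ngp and Csf3r on 2, Mpo and Mmp8 on 1, and the other 5 on 0. The granule protease Elane had means of 16.9, 30.2 and 13.97 in corpus, junction and forestomach. Like Elane and Ltf, Csf3r and Fpr2 had their highest mean at the junction. Mpo, Prtn3, Ctsg, Camp, Ngp and Mmp8 had it in the corpus, with 50.37, 17.23 and 19.3 for Mpo in the same order. Itgam and Cxcr2 had it in the forestomach, and Cxcr2 was called lower at the junction (7.7 against 45.33, limma adjusted p = 1.43e-04). The part of these cells in the stress keratin differences was not tested.

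Smooth muscle markers summed to 27430 to 32500 at the junction, 24610 to 35280 in the corpus and 65080 to 70780 in the forestomach, with 10 of 10 called lower at the junction than in the forestomach. Fibroblast markers summed to 26770 to 28660, 20490 to 23970 and 39410 to 47450, with 8 of 10 called lower than in the forestomach. The squamous markers summed to 76240 to 101600 at the junction, 107800 to 114500 in the forestomach and 1897 to 4055 in the corpus. The gland markers summed to 144300 to 164000, 1550 to 34660 and 133700 to 189900 in the same order. The part of this tissue mix in the stress keratin differences was not tested. As a sign of RNA quality, the 3′ to 5′ signal ratio of Gapdh was 0.723 ± 0.029 in the corpus, 0.759 ± 0.0043 at the junction and 0.846 ± 0.071 in the forestomach (mean ± SD, n = 3). The same ratio of beta-actin was 1.65 ± 0.079, 1.52 ± 0.038 and 1.65 ± 0.080 in that order.

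Genes linked to stress keratins or to wounding, from upstream signals to products, keratin partners and the cell cycle, were read from 8 lists. Of 224 listed genes 180 were measured. Where a list is counted below, the share of all genes called was 13.2% higher and 11.8% lower for junction over corpus, and 21.5% and 23.1% for junction over forestomach. The share of all genes above both neighbours was 1.33%.

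**Figure D4:**
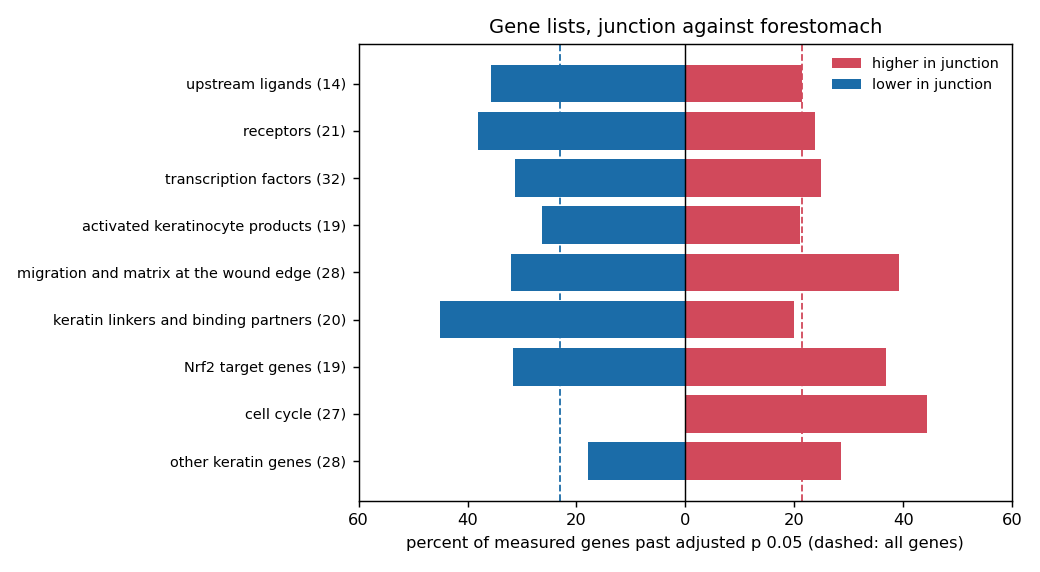
For each of 8 gene lists and the other keratins, with the number measured in brackets, the bars give the percentage called higher (red, to the right) and lower (blue, to the left) at the junction than in the forestomach, and dashed lines give the same over all 13637 genes. Higher shares run from 20% to 44.4%, and cell cycle genes have no gene called lower.

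Among upstream ligands, the cytokines and growth factors that reach keratinocytes at a wound, 6 of 14 rose over the corpus and 0 fell, while 3 rose and 5 fell against the forestomach. The interleukin 1 receptor antagonist Il1rn rose 8.30-fold over the corpus (3.05 ± 0.23, limma adjusted p = 2.90e-05) and was at -0.12 ± 0.23 against the forestomach (adjusted p = 0.705). Epiregulin (Ereg), a ligand of the EGF receptor, rose 7.21-fold over the corpus (adjusted p = 1.04e-05) and fell by 1.18 ± 0.18 against the forestomach (adjusted p = 8.84e-04). None of the 14 was above both neighbours, beside 1.33% of all genes.

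Among receptors of these ligands, 11 of 21 rose over the corpus and 1 fell, and 5 rose and 8 fell against the forestomach. The interleukin 1 decoy receptor Il1r2 had mean signals of 48.6 in the corpus, 348.9 at the junction and 886.1 in the forestomach (limma adjusted p = 1.20e-06 and 2.97e-05 for the junction against each). The EGF receptor itself, Egfr, and the keratinocyte growth factor receptor Fgfr2 had the same order, with junction differences of 0.94 and 1.18 over the corpus (adjusted p = 6.73e-04 and 2.55e-04) and -1.01 and -0.98 against the forestomach (adjusted p = 1.91e-04 and 3.18e-04). Of the 21, Erbb3 was the 1 above both, by 0.34 or more (larger adjusted p = 0.0191, and between 0.0589 and 0.161 with corpus array 1 or 2, junction array 2 or any series left out).

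Of 32 transcription factors, 10 rose over the corpus and 1 fell, and 8 rose and 10 fell against the forestomach. Trp63, the master regulator of squamous epithelium, rose 33.7-fold over the corpus (limma adjusted p = 7.46e-07), or 10.7-fold when its probe sets are averaged. Against the forestomach Trp63 was at -0.54 ± 0.18 (adjusted p = 0.0413), a call kept under 10 of 23 other settings and lost in the paired fit (0.0724), without corpus array 2, any forestomach array, junction array 1 or 2, or series 1 or 2 (0.0534 to 0.2). Snai2, which takes part in wound-edge migration of keratinocytes, rose 6.57-fold over the corpus (adjusted p = 5.30e-04, or 4.33-fold without series 3 and 3.90-fold with the mean of probe sets) and was at 0.15 ± 0.32 against the forestomach (adjusted p = 0.730). The largest rises over the forestomach were Elf3 (3.28 ± 0.16, adjusted p = 1.69e-06), Sox9 (2.45 ± 0.25, adjusted p = 9.20e-05) and Runx1 (2.40 ± 0.17, adjusted p = 1.18e-05, or 1.73 with the mean of probe sets). All of these 3 had corpus means of 1978, 290.1 and 143.0 beside junction means of 1570, 224.9 and 161.6, and their differences to the corpus did not pass. None of the 32 was above both, beside 1.33% of all genes.

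Products of activated keratinocytes are genes that wounded or inflamed epidermis makes beside the stress keratins. Of 19 measured, 15 rose over the corpus and 0 fell, and 4 rose and 5 fell against the forestomach. S100a8 and S100a9, subunits of the calprotectin dimer, both rose over the corpus, and no test compared them with each other. S100a8 had mean signals of 10.8, 231.6 and 55.6 in corpus, junction and forestomach and rose over both (3.39 ± 0.39, limma adjusted p = 4.42e-04, and 1.76 ± 0.39, adjusted p = 0.00636). Without series 1 the second had an adjusted p of 0.0544. S100a9 rose over the corpus by 6.00 ± 0.41 (adjusted p = 1.71e-05), with means of 15.7, 1507 and 1082, and its 0.44 ± 0.41 over the forestomach did not pass (adjusted p = 0.425). The protease inhibitor Stfa3, a stefin, rose over both, by 4.47 ± 0.33 (adjusted p = 2.58e-05) and 1.51 ± 0.33 (adjusted p = 0.00586). Arginase 1 (Arg1) rose by 5.45 ± 0.34 (adjusted p = 8.81e-06) and 1.20 ± 0.34 (adjusted p = 0.0184), and the second lost its call with forestomach array 1, junction array 3, series 1 or series 3 left out (adjusted p of 0.0602 to 0.0902). The serpin Serpinb3a had its highest mean in the forestomach, at 1479 beside 975.4 at the junction and 15.3 in the corpus. It rose over the corpus (adjusted p = 7.46e-07) and fell by 0.62 ± 0.19 against the forestomach (adjusted p = 0.0266, and 0.0548 to 0.126 with forestomach array 2 or 3, junction array 1, or series 2 or 3 left out). S100a8, Stfa3 and Arg1 are 15.8% of the list, beside 1.33% of all genes above both, and no test compared the lists.

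Genes of migration and matrix at the wound edge counted 12 of 28 higher and 1 lower than in the corpus, and 11 higher and 9 lower than in the forestomach. Cd44, the hyaluronan receptor, rose 8.42-fold over the corpus (limma adjusted p = 2.05e-06) and fell by 0.52 ± 0.14 against the forestomach (adjusted p = 0.0169, and 0.0529 to 0.0955 with forestomach array 2, series 1 or series 2 left out). The urokinase receptor Plaur rose over the forestomach by 1.59 ± 0.19 (adjusted p = 2.58e-04) with a corpus mean of 184.9 beside 179.4 at the junction. Filamin A (Flna), an actin crosslinker that smooth muscle also makes in quantity, fell by 1.46 ± 0.14 against the forestomach (adjusted p = 6.32e-05). The 3 genes above both were Itgb4, Myh9 and Pdpn, by 0.64, 0.32 and 0.47 or more (larger adjusted p = 0.0115, 0.0325 and 0.0195). Each of them lost that call in 1 comparison or both with some array or series left out: Itgb4 with series 2 or 3 (0.127 and 0.0613), Pdpn with forestomach array 3, junction array 2, series 1 or series 3 (0.0571 to 0.114), and Myh9 with corpus array 1, forestomach array 1 or 3, junction array 2 or 3, or any series (0.0541 to 0.267). In the paired fit with the series as a block Myh9 lost its call over the forestomach (adjusted p = 0.0522), and with the mean of probe sets its difference to the corpus was 0.07 (adjusted p = 0.702).

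The linkers that tie keratin filaments to desmosomes and their binding partners gave 13 of 20 higher and 2 lower than in the corpus, and 4 higher and 9 lower than in the forestomach. The squamous desmosome genes Pkp1, Dsc1 and Ppl rose over the corpus by 6.26, 5.69 and 3.52 (limma adjusted p = 1.22e-06, 2.04e-06 and 2.93e-06). Dsc1 and Ppl fell by 1.30 and 1.22 against the forestomach (adjusted p = 0.00399 and 6.72e-04). The desmosomal cadherins of simple epithelia Dsg2 and Dsc2 rose over the forestomach by 3.29 and 2.68 (adjusted p = 6.48e-06 and 1.99e-05), with differences to the corpus of -0.40 and 0.17 that did not pass. None of the 20 was above both, beside 1.33% of all genes.

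The oxidative stress factor Nrf2 is known to act on stress keratin genes. Of 19 of its other target genes 10 rose over the corpus and 1 fell, and 7 rose and 6 fell against the forestomach. Heme oxygenase (Hmox1) had means of 92.9, 688.3 and 1477 in corpus, junction and forestomach (limma adjusted p = 8.82e-06 and 8.98e-04 for the junction against each). Gsr, Ugdh and Nqo1 rose over the forestomach by 2.52, 1.81 and 1.29 (adjusted p = 4.41e-06, 2.97e-06 and 4.61e-05), and their differences to the corpus of -0.16, -0.23 and -0.19 did not pass. Gsta3 was the 1 of the 19 above both, at a larger adjusted p of 0.0478, a call lost with any series or any single array other than corpus array 3 or junction array 1 left out (0.0537 to 0.258). It was also lost with an added constant of 1, no filter, median centring or a fit to 6 arrays (0.051 to 0.0771). With the mean of probe sets Gsta3 was 0.08 above the corpus and 0.32 above the forestomach (limma adjusted p = 0.694 and 0.0795).

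Keratinocytes behind the front of a wound divide, and cell cycle genes were read for that reason. At the junction 12 of 27 rose over the forestomach and 0 fell, beside 1 higher and 1 lower than in the corpus. Survivin (Birc5) had means of 122.3, 141.1 and 52.8 in corpus, junction and forestomach, a rise of 1.29 ± 0.25 over the forestomach (limma adjusted p = 0.00323) and 0.16 ± 0.25 over the corpus (adjusted p = 0.673). The proliferation marker Mki67 rose by 0.98 ± 0.24 over the forestomach (adjusted p = 0.00922, or 0.0890 without series 1). Bub1b was the 1 above both (0.72 or more, larger adjusted p = 0.0193), a call lost with corpus array 2 or 3, junction array 2 or 3, or series 2 or 3 left out (0.0511 to 0.172).

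The genes whose course over the 9 arrays was most like that of the stress keratins came from several families. Likeness here is Pearson's r of log2 values over 9 arrays of 3 zones, and it says nothing on shared function or control. Against the mean of the 4 standardised members, Calcb, the beta form of calcitonin gene-related peptide, came first with r = 0.981. Its mean signals were 15.8 in the corpus, 437.7 at the junction and 75.7 in the forestomach. The next were Commd2 (0.980), the amino acid transporter Slc6a14 (0.975), Gpsm3 (0.971), the Wnt inhibitor Apcdd1 (0.966), Samd5 (0.963), Shtn1 (0.958), the potassium channel subunit Kcne3 (0.956), the calcium pump Atp2c2 (0.955) and Dip2b (0.952). A high r did not need a large difference: Commd2 was only 0.43 above the corpus and 0.32 above the forestomach at the junction, while Calcb was 4.11 and 2.37 above them.

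Slc6a14 was closest to Krt6a (r = 0.982) and to Krt16 (r = 0.978), with mean signals of 13.5, 84.5 and 20.9 in corpus, junction and forestomach. Krt79 was the second closest to Krt6a (r = 0.972) and the platelet chemokine Ppbp was also among its first 5 (r = 0.967). Krt7 was closest to Krt6b (r = 0.974) and Stfa3 to Krt17 (r = 0.971), and both had forestomach means, 654.5 and 150.7, between those of corpus and junction. The top 5 of Krt6b and of Krt17 shared Krt7, Stfa3, Urah and Calcb, and those of Krt6a and Krt16 shared Slc6a14, Gpsm3 and Commd2. Calcb was also in the top 5 of Krt16 (r = 0.969). These ranks are built from the same arrays as the members' own levels.

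**Figure D5:**
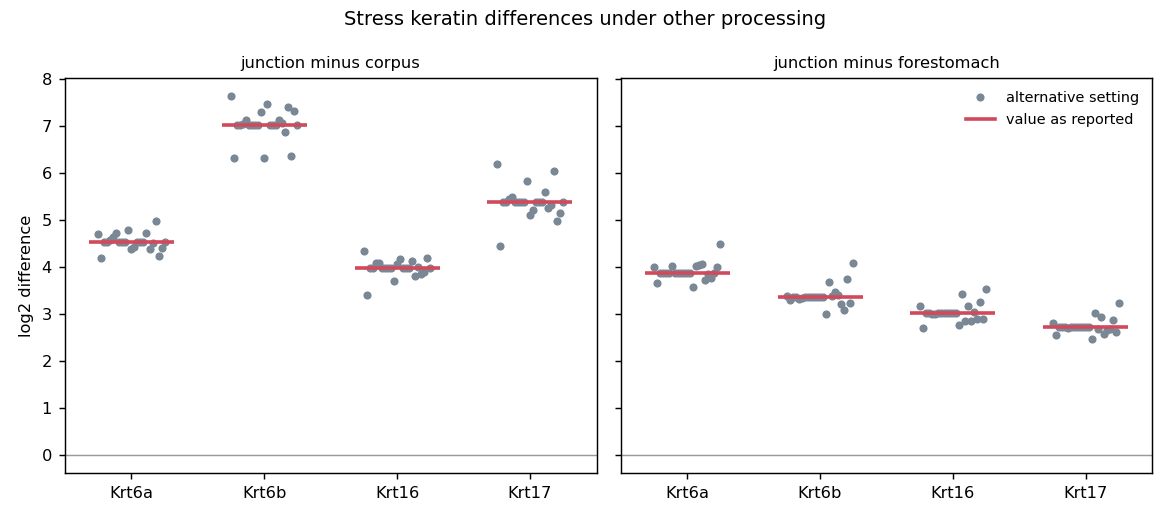
Log2 difference of each stress keratin between junction and corpus (left) and junction and forestomach (right) as reported (red line) and under each of 23 other settings (grey points). Every point is above 0, and the lowest is 2.46, for Krt17 against the forestomach.

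Under the 23 other settings the junction stayed above both neighbours for each of the 4 genes. Over the corpus the log2 difference ran from 4.20 to 4.98 for Krt6a, 6.31 to 7.63 for Krt6b, 3.41 to 4.34 for Krt16 and 4.45 to 6.19 for Krt17. Over the forestomach it ran from 3.58 to 4.48, 3.00 to 4.08, 2.70 to 3.53 and 2.46 to 3.24. Forestomach over corpus ran from 0.05 to 1.21 for Krt6a, 2.62 to 4.30 for Krt6b, 0.45 to 1.31 for Krt16 and 1.90 to 3.39 for Krt17.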

How the data were processed

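Total RNA was hybridised to Affymetrix mouse arrays, and the deposited table holds linear intensity per probe set. MAS5 made it, as the submitters' processing notes name it, and neither its release nor its scaling parameters are stated there. Arrays had trimmed means of 200.0 (after removal of 2% at both ends) and medians of 47.9 to 57.1. Of 45101 probe sets, 64 controls were left out, 34945 had 1 gene symbol, 932 several and 9160 none, and 34741 matched the GRCm38.p6 gene table, which gave names and gene order only. The filter level was the 40th percentile of an array, 29.0 to 36.5, and 29511 probe sets passed it on 3 or more arrays. Where several passed, the one brightest on average in log2 stands for the gene.

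Values were analysed as log2(signal + 9.8), where 9.8 is the median of the arrays' 20th percentiles, with limma 3.58.1 in R 4.3.3, 1 mean per zone over 9 arrays (6 residual and 2.56 prior degrees of freedom), two-sided, Benjamini-Hochberg over 13637 genes, threshold 0.05. Above both neighbours means both junction differences positive and the larger adjusted p under 0.05. The script was tested on simulated data. Figures used Python 3.11.15 and matplotlib 3.10.9.

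Named genes are, besides the members, Krt5 and Krt14, up to 4 called per list and comparison with the largest difference (for other keratins, per direction), and the 5 (per member) or 10 (mean) most alike. Krt7 and Krt79 and other list genes above both neighbours, the genes ranked between the members and the single hair and neutrophil markers were named after their values were seen. Gm, Riken and LOC names were passed over. The members and lists were chosen with earlier results of these data known.

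The series number pairs arrays because they come from the same mice, per the labels. Deviations from zone means correlated at r from -0.0287 to 0.123 within a series (mean 0.0329, 9 pairs), against a mean of -0.0164 between series (18 pairs). Alternatives were other pseudocounts (1, 30.9), no or a stricter filter (60th percentile), quantile normalization, median centring, the mean of probe sets, limma's trend with its robust option, fits to the 6 arrays of a comparison, the series as a block, leaving out each array or series, and, chosen after seeing the data, forestomach array 1 alone.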

Additional observations from a re-analysis of the deposited data

How the results depend on the processing

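Of 23 settings, none turned the direction of a member's junction difference. The members' median difference ran from 4.32 to 5.51 for junction over corpus, from 2.88 to 3.80 for junction over forestomach and from 1.30 to 2.29 for forestomach over corpus, and 3.80 came from forestomach array 1 as the only forestomach array. That setting also called 44 list genes lower than in the forestomach, where the reported count was 78. With the replicate block for the series, the paired fit, the medians were unchanged by construction at 4.96, 3.19 and 1.82, and counts of list genes stayed within 1.5 times.

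The share of genes above both neighbours fell from 1.33% to 0.868% with no filter, and ran from 0.616% to 1.31% when arrays or series were left out. List genes called lower at the junction than in the corpus were 9, or 2 after median centring and 1 to 10 with an array or series left out. The difference of Dip2b against the forestomach turned from 0.26 to -0.13 with the mean of probe sets. The cause was not tested in any of these. Of 8847 values for 387 results on single named genes, 8447 kept their side of the threshold, 324 lost the call, 75 gained it and 1 reversed. A reversal was counted only where the difference passed as reported or in the other setting. Differences that passed in neither could change sign, such as Krt14 against the forestomach, which ran from -0.31 to 0.11. The number of arrays limits the precision throughout, and dim corpus signals limit the folds of Krt6b, Krt16 and Krt17.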
